A study of Homo sapiens with 12 samples.

Results

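The receptors described here sense fatty acids and small acids of metabolism: the free fatty acid receptors FFAR1, FFAR2, FFAR3 and FFAR4 and the hydroxycarboxylic acid receptors HCAR1, HCAR2 and HCAR3. These 7 of 19974 protein-coding genes were examined in peak lists from chromatin immunoprecipitation sequencing (ChIP-seq) of the nuclear receptor PPARγ. Peaks were chosen by position: a peak belonged to a receptor gene when its summit lay within 50 kb of the gene span on hg38. A pooled peak is called reproducible when a peak in both single libraries of its group overlapped it by at least 1 bp. By this rule the windows held 4 of 2846 pooled KQ peaks and 14 of 25164 pooled WT peaks. The same lists chose the genes and define the counts, so the counts are descriptions with no test.

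The cells were MCF10A-NeuT, made from the human breast epithelial line MCF10A by transformation with NeuT, an oncogenic form of the ERBB2 receptor. By retrovirus they stably carried either the PPARg K154/155Q mutant, labelled KQ, in which 2 neighbouring lysines are glutamines, or wild-type PPARγ, labelled WT. Both lines therefore share the oncogene and the viral vector, and receptor made from the cells' own gene was not told apart from the introduced one. Each group had 2 ChIP libraries with a peak list and 1 list from the pooled libraries. A PPARγ antibody is named by the extraction protocol and the antibody label, but a Flag antibody by the design text. Separate cultures are not mentioned in the labels, and the spread between libraries may thus be technical. The vector ChIP and input libraries were not analysed here. Peak lists hold no expression values, so the cell type was not checked against markers, and a peak near a gene does not show that the gene was expressed.

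PPARγ is a nuclear receptor that binds DNA with its partner RXR, commonly at a direct repeat of AGGTCA with 1 base between the copies. Fatty acids and their derivatives are among its ligands. The receptors examined here lie on the cell surface and couple to G proteins. FFAR1 and FFAR4 respond to long-chain fatty acids, FFAR2 and FFAR3 to the short-chain acids of fermentation such as acetate, propionate and butyrate. HCAR1 responds to lactate, HCAR2 to the ketone body beta-hydroxybutyrate and to niacin, and HCAR3 to hydroxylated medium-chain fatty acids. In adipocytes the HCAR receptors are known for restraining lipolysis.

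Promoter sequence was at hand for FFAR1, FFAR2 and FFAR4 but not for the other 4 receptor genes. Of the promoters at hand, pooled peaks within the windows overlapped those of FFAR4 and DENR, which are shown. Whether the WT peaks beside the ends of HCAR2 and HCAR3 or inside FFAR3 lie at a transcription start was not examined. DENR encodes a translation factor, and its start is the place of the site shared by all 6 lists beside the HCAR genes. Both stretches come from RefSeq (GRCh38.p14, plus strand) and run to the last base of the peak or of the promoter before the start. Capitals mark the stretch closest, on either strand, to this repeat (AGGTCA, any base, AGGTCA). The first is the whole pooled WT peak at chr10:93566429-93566660, just before the FFAR4 start at 93566665. The second is the part of the pooled WT peak before the DENR start, chr12:122752679-122752823.
FFAR4: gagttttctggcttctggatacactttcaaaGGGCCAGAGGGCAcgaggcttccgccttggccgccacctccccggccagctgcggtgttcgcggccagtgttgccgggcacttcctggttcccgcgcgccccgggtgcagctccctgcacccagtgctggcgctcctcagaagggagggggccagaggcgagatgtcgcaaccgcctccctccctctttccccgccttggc
DENR: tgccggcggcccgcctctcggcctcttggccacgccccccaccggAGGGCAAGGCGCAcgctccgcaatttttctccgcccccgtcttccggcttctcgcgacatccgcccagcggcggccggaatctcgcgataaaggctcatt

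The FFAR4 stretch in capitals had 3 mismatches in the 12 fixed bases of the motif, and 20.9% of 35116 RefSeq promoters of 300 bases hold a match at least that close. The DENR stretch had 4 mismatches, and 75.0% of promoters hold one at least that close. Neither 300-base promoter held a match with at most 2 mismatches, which 2.97% of promoters do. Neither held a single AGGTCA, which 13.8% of promoters hold on either strand. These letters describe only the windows searched. No sequence was used for the other sites, among them the FFAR2 site.

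Peaks near the receptor genes were fewer with KQ than with WT, in the pooled lists and in the single libraries. The windows held 3 and 2 peaks in KQ libraries 1 and 2, against 11 and 6 in WT libraries 1 and 2. The KQ and WT libraries did not overlap in this count, although with 2 libraries per group an exact permutation test could not go below p = 0.33. As a share of the whole list, these were 0.238% and 0.193% of KQ peaks, against 0.0606% and 0.0336% of WT peaks. The KQ lists as a whole are much shorter, with 1263 and 1035 peaks against 18143 and 17859 for WT.

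A reproducible peak lay within 50 kb of 4 of the 7 genes in each group, but not of the same 4 genes. With KQ these were FFAR2, HCAR1, HCAR2 and HCAR3, and 2.68% of all protein-coding genes had a reproducible KQ peak. With WT they were FFAR4, HCAR1, HCAR2 and HCAR3, and 37.7% of all protein-coding genes had a reproducible WT peak. The genes share sites: 2 distinct KQ peaks and 3 distinct WT peaks made up these counts, and the HCAR genes stood on a single KQ peak. Any pooled peak, reproducible or not, lay within 50 kb of 4 of 7 genes with KQ and of 7 of 7 with WT, against 16.4% and 67.1% of all genes. Each of the 4 pooled KQ peaks overlapped a pooled WT peak, as 80.4% of all pooled KQ peaks did. In the other direction, 4 of the 14 pooled WT peaks overlapped a KQ peak, against 9.10% of all pooled WT peaks.

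**Figure D1:**
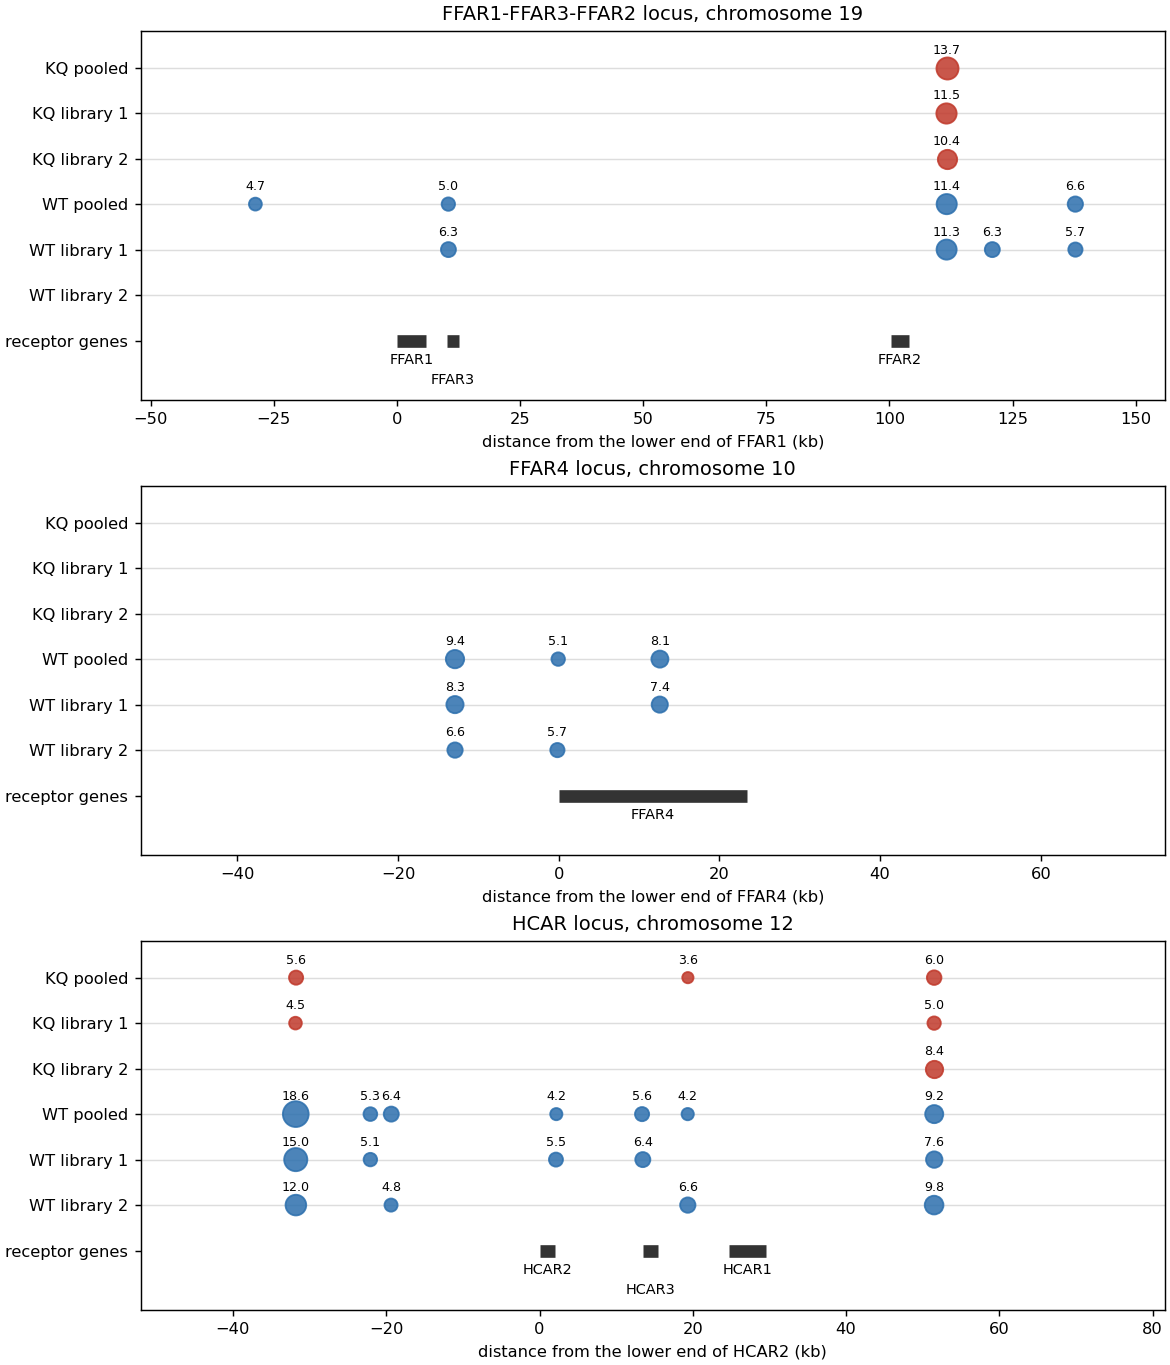
Peaks near the receptor genes by list, with position in kb from the lower end of the first gene of each locus on the horizontal axis and the 6 peak lists above the gene spans. Each point is a peak summit, its area and number give the fold enrichment, and KQ peaks (red) appear at 1 place beside FFAR2, at 3 places around the HCAR genes and at none around FFAR4.

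At FFAR2, a receptor for short-chain fatty acids, the pooled KQ peak had the highest fold of the 4 pooled KQ peaks near these genes. It spans chr19:35459364-35459648, with its summit 7.7 kb above the upper end of the gene and no other protein-coding gene nearer. Fold enrichment is the authors' ratio of tags over the caller's background, with 1 added to each. At this site it was 13.7 in the pooled KQ list, 11.5 in KQ library 1 and 10.4 in KQ library 2. It was 11.4 in the pooled WT list and 11.3 in WT library 1, and WT library 2 had no peak there. The site thus recurred in both KQ libraries but in only 1 of the 2 WT libraries. Of the 354 reproducible KQ peaks, 313 were found in both WT libraries, 21 in WT library 1 alone, 7 in WT library 2 alone and 13 in neither.

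The tags behind these folds were recovered from the deposited fold and p together. The FFAR2 summit carried 48 tags over a background of 2.59 tags in the pooled KQ list. In KQ libraries 1 and 2 it carried 30 and 20 tags, over backgrounds of 1.69 and 1.01. In the pooled WT list it carried 21 tags over a background of 0.93, and in WT library 1 it carried 15 over 0.41. The KQ tag numbers were thus all higher than or close to the pooled WT number, on a background that was 2.79 times as high in the pooled lists. The pooled tags were 2.29 times as high with KQ. Without the added 1, tags over background would thus be lower in the pooled KQ list than in the pooled WT list. The pooled WT summit held 6 tags more than WT library 1, in which the summit lay at a slightly different base. WT library 2 had the lowest tag level of the single libraries, with a median of 8 tags per peak against 15 in WT library 1. The part of this depth in the missing peak was not tested.

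**Figure D2:**
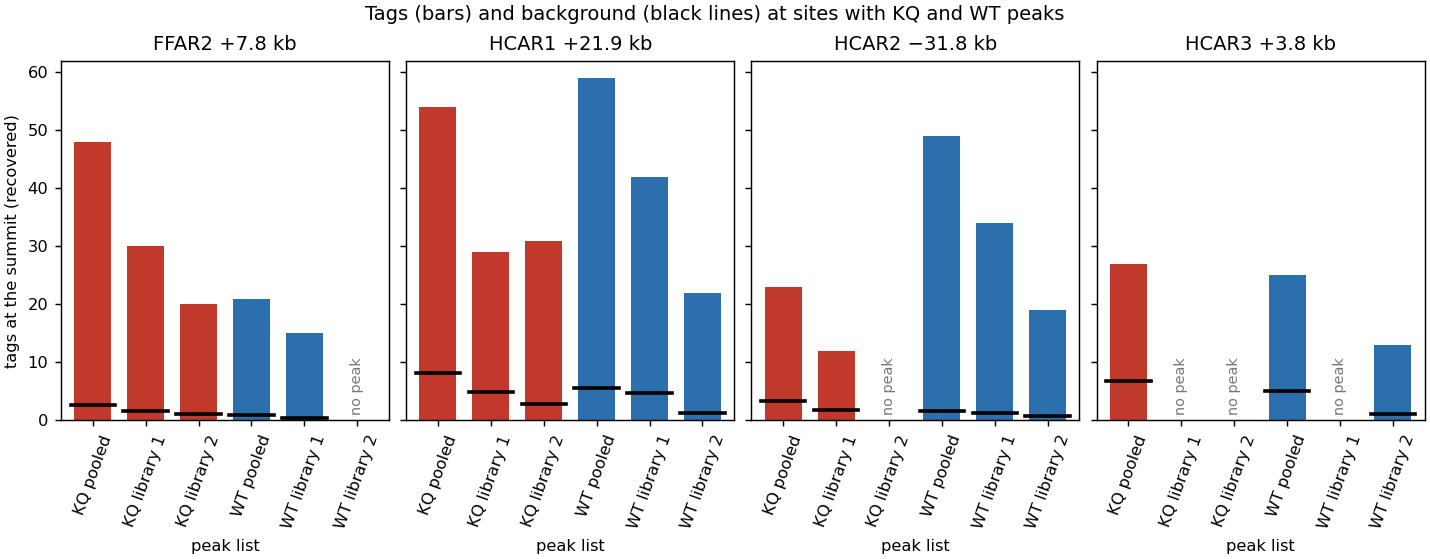
Tags at the summit (bars, vertical axis) and the caller's background (black lines) in each of the 6 lists for the 4 sites with a pooled KQ and a pooled WT peak, KQ in red and WT in blue. At the FFAR2 site the pooled KQ bar (48 tags) stands above the pooled WT bar (21), whereas at the HCAR2 site 31.8 kb below the gene it stands below (23 against 49).

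Among the 2295 overlapping pairs of pooled KQ and WT peaks, the FFAR2 pair stood eighth from the top by KQ fold (rank 8) and at rank 733 by WT fold. The median fold over all pairs was 4.88 for KQ and 9.0 for WT. The ratio of KQ to WT tags at the FFAR2 site was 2.29, against a median of 0.79, and 13 pairs (0.566%) had a ratio at least as high. The tags are not scaled for background, which at this site was 2.79 times as high with KQ. These ranks describe a site whose gene was chosen with its KQ peak known. At the other pairs the ratio was 0.92 at the HCAR1 site, 1.08 at the HCAR3 site and 0.47 at the HCAR2 site. A ratio at least as high was held by 38.1%, 26.5% and 89.1% of pairs, so the HCAR2 pair stood towards the low end. The background there was 1.49, 1.34 and 1.93 times as high with KQ.

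**Figure D3:**
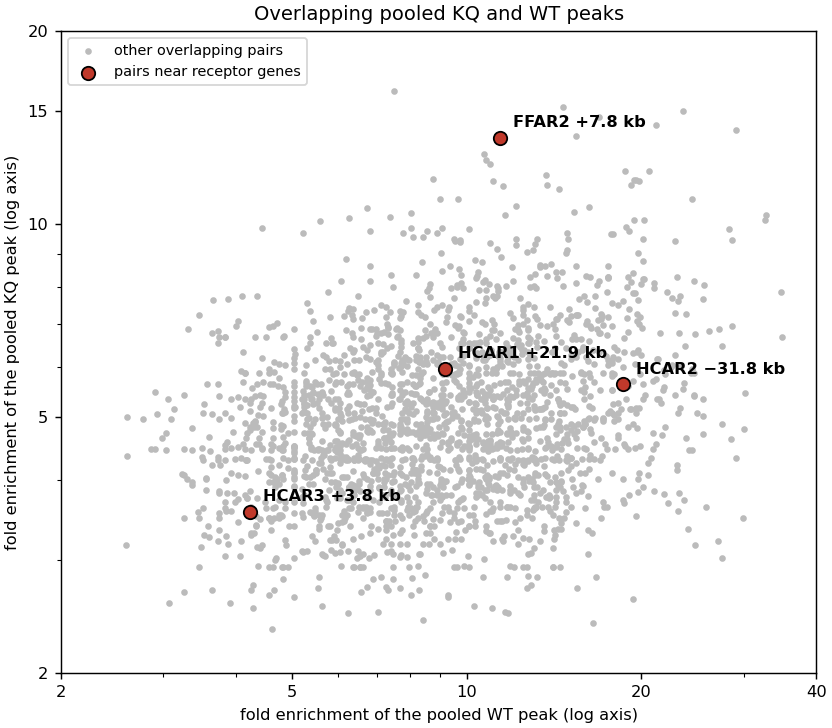
Fold enrichment of the 2295 overlapping pairs of pooled KQ (vertical, log axis) and pooled WT peaks (horizontal, log axis), with the 4 pairs near receptor genes in red. The FFAR2 pair lies near the top of the KQ axis at 13.7 and in the upper middle of the WT axis at 11.4, and the HCAR2 pair lies far right at a WT fold of 18.6 and a KQ fold of 5.63.

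Beyond this site, FFAR2 had WT peaks alone. A pooled WT peak lay 33.9 kb above the gene (fold 6.56, 9 tags), 1.7 kb from KRTDAP, which encodes a protein of differentiating skin cells. It was found in WT library 1 (fold 5.68, 8 tags) and not in WT library 2. WT library 1 also had a peak 17.0 kb above FFAR2 (fold 6.33, 9 tags) that the pooled WT list did not hold. No list had a peak at the FFAR2 promoter.

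FFAR3 and FFAR1, which lie side by side below FFAR2 on chromosome 19, had WT peaks of low pooled fold and no KQ peak. FFAR3, the second short-chain fatty acid receptor, had a WT peak inside its span at chr19:35358206-35358392. The fold there was 5.03 in the pooled WT list (8 tags) and 6.31 in WT library 1 (9 tags), with no peak in WT library 2. FFAR3 has a near-identical neighbouring copy, GPR42, and the sources used here do not say how reads that fit both were treated, so the assignment of this peak is uncertain. The same summit is the nearest one to FFAR1, a long-chain fatty acid receptor of pancreatic beta cells, 4.5 kb above that gene. A further pooled WT peak (fold 4.67, 24 tags over a background of 4.35) lay 28.8 kb below FFAR1 and 5.3 kb from MAG, a myelin glycoprotein gene. It was found in neither WT library. In fold, 19.6% of pooled WT peaks were lower than this one, and 24.8% were lower than the FFAR3 peak.

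FFAR4, the long-chain and omega-3 fatty acid receptor of adipocytes and gut cells, had 3 pooled WT peaks and 0 peaks in any KQ list. At least 3 pooled WT peaks lay within 50 kb of 27.7% of all protein-coding genes. The reproducible one lay 12.9 kb below the gene at chr10:93553636-93553883. Its fold was 9.41 in the pooled WT list (27 tags), 8.30 in WT library 1 (17 tags) and 6.58 in WT library 2 (10 tags). The 3 summits lay within 6 bases of each other. In fold, 83.7% of the pooled WT list was lower.

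The other FFAR4 peaks were each seen in a single WT library. The promoter peak, whose sequence is printed above, had its summit 65 bases before the start, with a fold of 5.10 in the pooled WT list (8 tags). In WT library 2 its fold was 5.69 (6 tags), with the summit 99 bases from the pooled one, and WT library 1 had no peak there. The peak inside the gene, at chr10:93579173-93579336, had a fold of 8.14 in the pooled WT list (20 tags) and 7.38 in WT library 1 (15 tags), with none in WT library 2. All other protein-coding genes were farther from these summits than FFAR4 was.

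**Figure D4:**
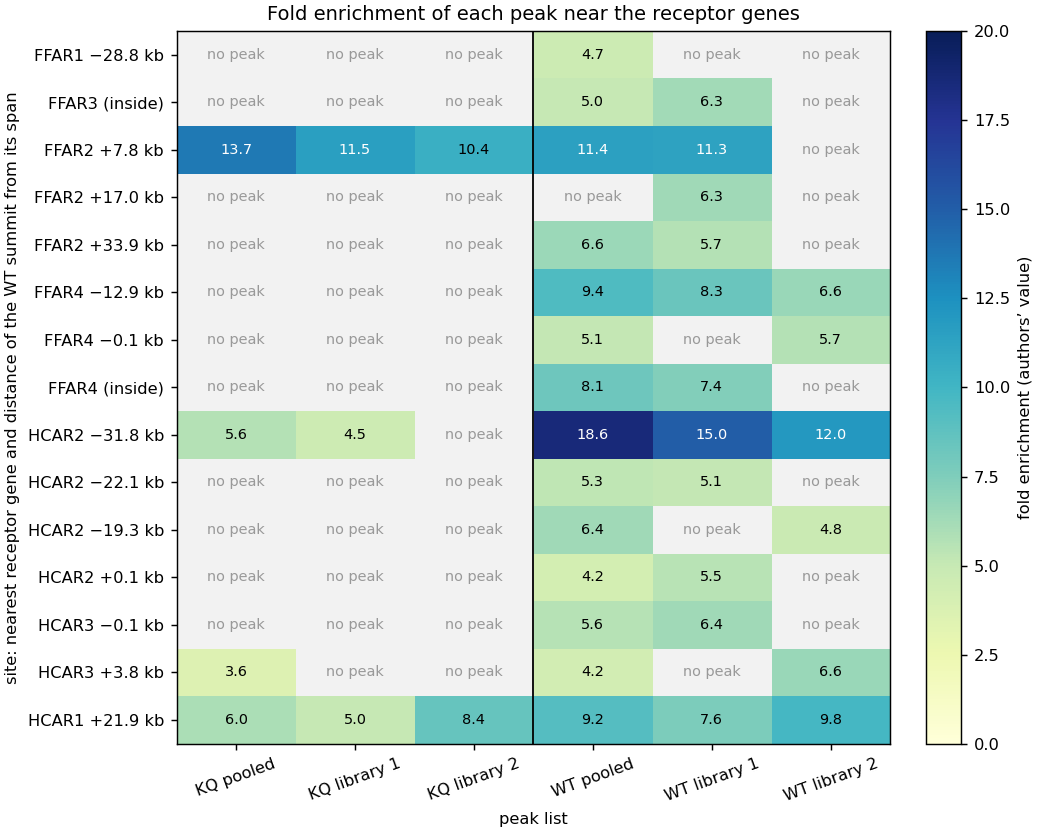
Fold enrichment of each peak (colour and number) at the 15 sites near the receptor genes, with sites down the page and the 6 lists across, KQ left of WT. KQ peaks fill 4 of the 15 rows, and the FFAR2 row at 7.8 kb is the only one with peaks in both KQ libraries and in 1 WT library.

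The HCAR genes lie within about 30 kb of each other on chromosome 12 and shared most of their peaks. HCAR2 and HCAR3 each had 3 pooled KQ peaks and 7 pooled WT peaks within 50 kb. At least as many lay near 0.691% and 4.31% of all protein-coding genes. HCAR1 had 2 pooled KQ and 6 pooled WT peaks, where at least as many lay near 3.07% and 6.77% of genes. The HCAR2 and HCAR3 genes are near-identical copies, and reads from them may be split between the copies.

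The site found in all 6 lists lay at the start of DENR, 21.9 kb above HCAR1, and DENR was nearer to it than any receptor gene. Its summit lay 36.0 kb from HCAR3 and 49.4 kb from HCAR2, just inside the 50 kb limit. The fold was 5.95 in the pooled KQ list, 5.03 in KQ library 1 and 8.45 in KQ library 2. It was 9.18 in the pooled WT list, 7.58 in WT library 1 and 9.81 in WT library 2. The tags were 54, 29 and 31 in these KQ lists, against 59, 42 and 22 in the WT lists. KQ and WT libraries overlapped in both fold and tags here. The pooled summits lay 9 bases apart, against a median of 27.0 bases over all overlapping pairs.

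The pooled WT peak with the highest fold near any of these genes lay 31.8 kb below HCAR2 at chr12:122669359-122669626, with no protein-coding gene nearer. Its fold was 18.6 in the pooled WT list, higher than 99.0% of that list. It was 15.04 in WT library 1 and 11.96 in WT library 2, with 34 and 19 tags. The pooled KQ list had a peak on it with a fold of 5.63 and 23 tags, against 49 tags in the pooled WT list. KQ library 1 had one with a fold of 4.54 and 12 tags, which was higher than 17.1% of its own list, and KQ library 2 had none. The folds of the pooled KQ list and of KQ library 1, which is part of that pool, lay below both WT library folds. With no peak in KQ library 2, the KQ peak did not meet the rule for a reproducible one. The background at the site was 1.93 times as high in the pooled KQ list, at 3.26 tags against 1.69 in the pooled WT list.

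Between these sites, 1 further site had a pooled KQ peak and 5 had a pooled WT peak. A site 3.8 kb above HCAR3 had a fold of 3.56 in the pooled KQ list (27 tags), 4.24 in the pooled WT list (25 tags) and 6.60 in WT library 2 (13 tags). It appeared in neither KQ library and not in WT library 1. Its background, 6.86 tags with KQ and 5.14 with WT, was high among these sites, and 12.7% of pooled KQ peaks had a lower fold, whereas in WT library 2 65.0% of peaks had a lower fold. WT peaks without KQ lay 22.1 kb and 19.3 kb below HCAR2 (pooled fold 5.27 and 6.36), 129 bases above its upper end (4.17) and 83 bases below the lower end of HCAR3 (5.62). Of these, the one 19.3 kb below HCAR2 was found in WT library 2 and the others in WT library 1, none in both. Of the 14 pooled WT peaks near the 7 genes, 3 were in both WT libraries, 7 in library 1 alone, 3 in library 2 alone and 1 in neither. Over the whole lists, 12.4% of pooled KQ peaks and 31.9% of pooled WT peaks were reproducible.

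The 50 kb limit decides some of these assignments. The DENR site counts for HCAR2 at 49.4 kb, and the strong HCAR2 site counts for HCAR3 at 45.3 kb but not for HCAR1, from which it lies 56.6 kb. The first pooled peaks outside the limit were WT peaks 76.7 kb above FFAR2, at the SBSN promoter (fold 5.40), and 95.4 kb below FFAR4, inside MYOF (fold 9.41). With a 25 kb window, 2 of 7 genes had a reproducible peak in each group: FFAR2 and HCAR1 with KQ, against 1.74% of all genes, and FFAR4 and HCAR1 with WT, against 27.5%. With a 5 kb window 0 of 7 had one in either group, against 1.09% and 17.5% of all genes. With a 100 kb window, FFAR3 joined the KQ genes through the FFAR2 site, giving 5 of 7 with KQ against 4.31% of all genes, and the WT count stayed at 4 of 7 against 52.4%.

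**Figure D5:**
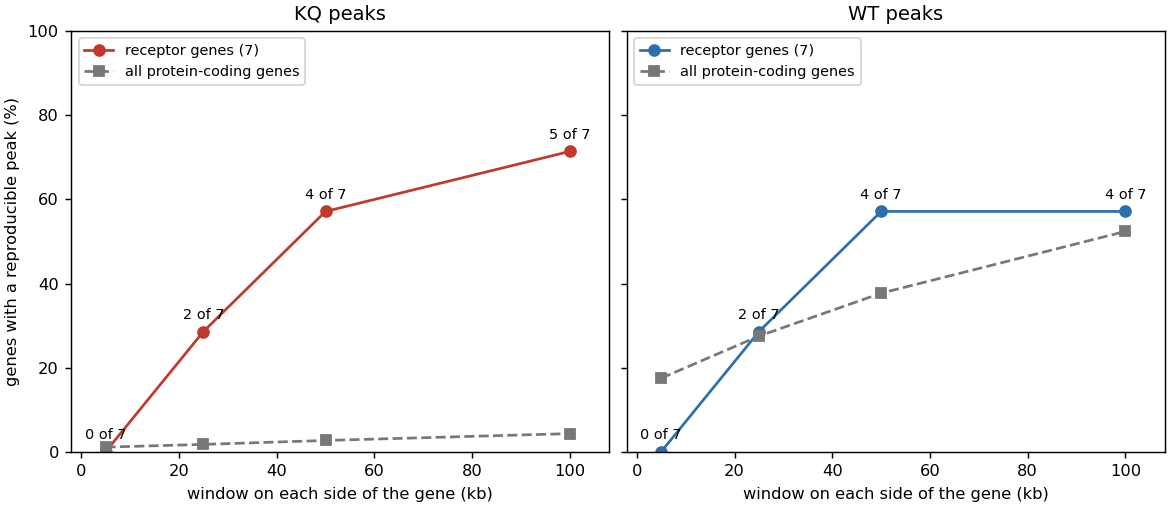
Percent of the 7 receptor genes (solid) and of all protein-coding genes (dashed) with a reproducible peak, by window on each side of the gene in kb, for KQ (left) and WT (right). With KQ the receptor genes lie above the dashed line at 25, 50 and 100 kb, at 2, 4 and 5 of 7. With WT they meet it at 25 kb and lie above it at 50 and 100 kb, at 4 of 7 in both. The WT gap at 100 kb is small, at 4 of 7 against 52.4%. At 5 kb the receptor genes lie below the dashed line in either group. The HCAR genes share peaks, so the genes are not independent of each other.

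Other receptors for lipids and metabolites also had KQ sites. A reproducible KQ peak lay near 2 of 18 such genes and a reproducible WT peak near 8 of 18, beside 2.68% and 37.7% of all genes. The KQ peaks lay inside LPAR1, a receptor for lysophosphatidic acid (fold 7.03 with KQ and 10.6 with WT), and 25.9 kb from PTGER2, a prostaglandin E2 receptor (fold 8.61 with KQ and 6.82 with WT). The PTGER2 site carried 49 tags in the pooled KQ list and 22 in the pooled WT list. These tags are not scaled for background, whose median per peak was 4.12 tags in the pooled KQ list and 1.98 in the pooled WT list. The highest WT folds were 21.2 inside PTGER4, another prostaglandin E2 receptor, 14.5 inside CD36, a fatty acid transporter, and 12.5 near LPAR2, where the summit lay 28.4 kb from that gene and nearest to PBX4.

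Among the G proteins, arrestins and effectors that carry the signal of such receptors, 1 of 24 genes had a reproducible KQ peak and 15 of 24 a reproducible WT peak, beside 2.68% and 37.7% of all protein-coding genes. The KQ peak lay inside GNAS, which encodes the G protein subunit that stimulates adenylyl cyclase (fold 5.02 with KQ and 6.54 with WT). GNAQ, the subunit that couples FFAR1 and FFAR4 to phospholipase C, had the highest WT fold (13.6, inside the gene). It was followed by the receptor kinase GRK5 (11.8, inside) and the phospholipase PLCB1 (11.5, 36.4 kb outside).

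Of 17 genes that make or release the ligands, 9 had a reproducible WT peak, beside 37.7% of all protein-coding genes. The highest WT folds lay inside LIPE, the hormone-sensitive lipase (16.0), LDHB, a lactate dehydrogenase subunit (15.4), and PNPLA2, the adipose triglyceride lipase (14.3).

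The pattern of FFAR2 over the 4 libraries was compared with that of genes found in the same libraries. FFAR2 stood higher in fold than 99.0% and 98.2% of the peaks in KQ libraries 1 and 2 and than 91.7% in WT library 1, with no peak in WT library 2. Of 19974 protein-coding genes, 7 others that share no site with it had peaks within 50 kb in the same 3 libraries and none in WT library 2. Genes were counted here, not sites. No share among genes with peaks in both KQ libraries was computed, so the count does not show that the pattern is rare. WT library 2 had the fewest tags per peak (median 8), and the part of this depth in the pattern was not tested. The nearest by these percentiles were PF4V1 and CXCL1, a pair of chemokine genes with equal values (56.7%, 90.3% and 94.3%), at a Euclidean distance of 43.1 percentile points. PAPLN followed at 44.4, and C9orf153 and ISCA1, also with equal values, at 63.2.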

How the data were processed

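Mapping to hg38 used Bowtie2 (version 2) and peak calling used MACS2, per the submitters' processing notes. Not given in the sources used here: caller settings and any use of input. For each peak the authors deposited a fold enrichment (a ratio over the caller's background), a −log10 p, a −log10 q and a summit. The authors called peaks per library and on the pooled libraries of each group. Only peaks on autosomes and chromosome X were kept, with 1-based positions. Gene spans came from RefSeq (GRCh38.p14), which gives neither exons nor, for 4 of the receptor genes, a promoter, so exons, introns and UTRs were not told apart. Tags and background were recovered as the whole-number pile and the Poisson mean that give the deposited fold, (tags + 1)/(background + 1), and the deposited −log10 p within 0.002 or 0.01% of the value, whichever is larger. This gave a value for 100% of peaks in each list. Median tags per peak were 17 and 16 in the KQ libraries and 15 and 8 in the WT libraries. Intervals for counting error are not given, and fold and tags between lists depend on depth and on the caller's fragment length.

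Members and lists were chosen with earlier results of these data known, so no result has a test. Named genes were the 7 receptors, the gene that holds or is nearest to each summit, listed pathway genes with a reproducible KQ peak, the 3 highest WT folds per list, and 5 genes most like FFAR2. The last comparison was to use genes with peaks in all 4 libraries. FFAR2 has none in WT library 2, so genes with the same missing library were used, a choice made after seeing the data. Pathway genes were matched by symbol, 59 of 59. For the list of ligand supply, the KQ result is not reported here. Overlap, windows, tag recovery and motif search were tested on simulated data. Alternatives were other windows, q limits, overlaps, single libraries and a shortened WT list. Python 3.11.15 with pandas 2.3.3, numpy 2.4.6, scipy 1.17.1 and matplotlib 3.10.9 was used.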

Additional observations from a re-analysis of the deposited data

How the results depend on the processing

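Of 47 recomputed counts, 31 stayed within 1.5 times the reported ones. With 5 kb windows, 0 genes and 0 peaks were left in either group for the reproducible counts, and 1 WT peak overlapped a KQ peak. With 25 kb windows, 2 genes in each group had a reproducible peak in place of 4. Counting all pooled peaks gave 4 KQ peaks in place of 2, 14 WT peaks in place of 3, and 7 genes with a WT peak in place of 4. At −log10 q of at least 10, and with the WT list shortened to the KQ length, 2 WT peaks overlapped a KQ peak in place of 4. With 1 library per group, 4 genes had a KQ peak either way, from 2 to 3 KQ peaks. In the same setting 4 to 7 genes had a WT peak, from 6 to 11 WT peaks, and 1 to 3 of these overlapped a KQ peak: the higher values come from leaving out replicate 2, the library with the fewest tags in WT. FFAR1, FFAR2 and FFAR3 then gained a WT peak. The cause of these shifts was not tested beyond the construction of each setting. No paired analysis was possible because every result was planned as a description with no test. The titles number the libraries 1 and 2 in each group, and whether equal numbers were matched was not examined. Peaks of 6 to 9 tags near FFAR3, FFAR4, HCAR2, HCAR3 and FFAR2 are at the limit of this depth, and a missing peak is not shown to be a missing site.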
